A study of Mus musculus with 14 samples.

Results

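Organoids of the sublingual gland (SLG) were compared with organoids of the submandibular gland (SMG) to ask how far the 2 glands differ once their cells grow in the same medium. The comparison took 2 libraries of each gland, 4 of the 14 libraries of the series, by their sample labels. All 45777 genes of the deposited table were considered, genes with 0 counts in one gland included, and 17607 passed the filter on low counts. Tissue libraries of the glands, compared further below, carry 6w in their column headers, read here as an age of 6 weeks. Both organoid groups were grown from salivary gland cells of female C57BL/6 mice aged 6 to 8 weeks, with no genetic change described. Both had spent 9 days in the growth and expansion media (GEM), which holds 10 μM of the ROCK inhibitor Y-27632, and then 3 days in the differentiation accelerating media (DAM). The DAM lacks Y-27632 and holds 5 μM DAPT, which blocks Notch signaling, so both glands carried a Notch inhibitor. Both media hold neuregulin 1, FGF1, FGF7, RSPO1, the BMP antagonist Noggin and 0.5 μM A83-01, an inhibitor of the TGFβ receptor. The study's text also describes retinoic acid in the GEM, though its recipe for these media does not list it. The study describes the sequenced organoids of each gland as biologically independent samples, without saying whether these were separate mice or separate cultures of 1 line, and the labels give neither that nor the passage. The p-values cover the spread between libraries, and a difference between glands cannot be told apart from one between culture lines.

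The SLG is a mainly mucous gland, whose acini make saliva rich in mucins, glycoproteins covered with O-linked sugars. The SMG is a mixed gland, and in rodents its granular ducts store kallikreins and growth factors. In both glands acinar cells secrete onto a ductal tree of luminal and basal cells, myoepithelial cells with smooth muscle proteins squeeze the acini, and scattered ionocytes of the ducts express the transcription factor FOXI1 and the chloride channel CFTR. Basal cells hold keratins 5 and 14, and stratified epithelia that mature from such cells deposit a cornified envelope of small proline-rich proteins and involucrin.

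Library totals were 67532147 and 58787274 counts in SLG organoids and 65607565 and 65295755 counts in SMG organoids. Levels are given in CPM, which scales counts to the size of each library, with edgeR's TMM factors. A library with 0 counts of a gene was taken as below a floor of 3 counts, 0.0422 to 0.0481 CPM, which covers counting error only. The root mean square of the 500 largest log2 differences was 2.20 between the SLG libraries and 2.34 between the SMG libraries, against 5.28 to 5.52 between glands. Ptprc of leukocytes, Kdr of endothelium, Igha of plasma cells and Prph of nerve had 0 counts in all 4 libraries, though the plasma cell and nerve lists were carried by Sdc1 and Mbp in both glands. The 10 fibroblast markers summed to 1.62 and 1.81 CPM in SLG and 1.09 and 1.31 CPM in SMG organoids.

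Far more genes were higher than lower in SLG organoids, and many of them were close to silent in SMG organoids. Most of the tested genes of ionocytes, myoepithelial cells and mucus, and 10 of 20 luminal duct genes, were higher in SLG organoids, whereas most genes of the cornified envelope and most epidermal kallikreins were lower, as were Il1f9 and Il1a of the interleukin-1 family. A gene was called at an adjusted p under 0.05 and a change of more than 2-fold. In SLG relative to SMG organoids 2025 genes were called higher, 11.5% of those tested, and 1218 lower, 6.92%, so that 18.4% of all genes were called (edgeR). Each count of a gene list below is to be read beside these shares. The libraries of the 2 glands did not overlap for 77.3% of all genes tested, so absence of overlap alone says little about a gene. Genes called higher differed by a median of 5.32-fold and genes called lower by 3.40-fold, with genes at 0 in one gland set at the bound their floor gives. Of those called higher, 47 differed by more than 100-fold on this measure, as did 12 of those called lower. In bulk RNA, fewer cells of a type and less RNA per cell cannot be told apart. With genes that had a 0 count in any library left out, 1449 genes were higher and 1021 lower.

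**Figure D1:**
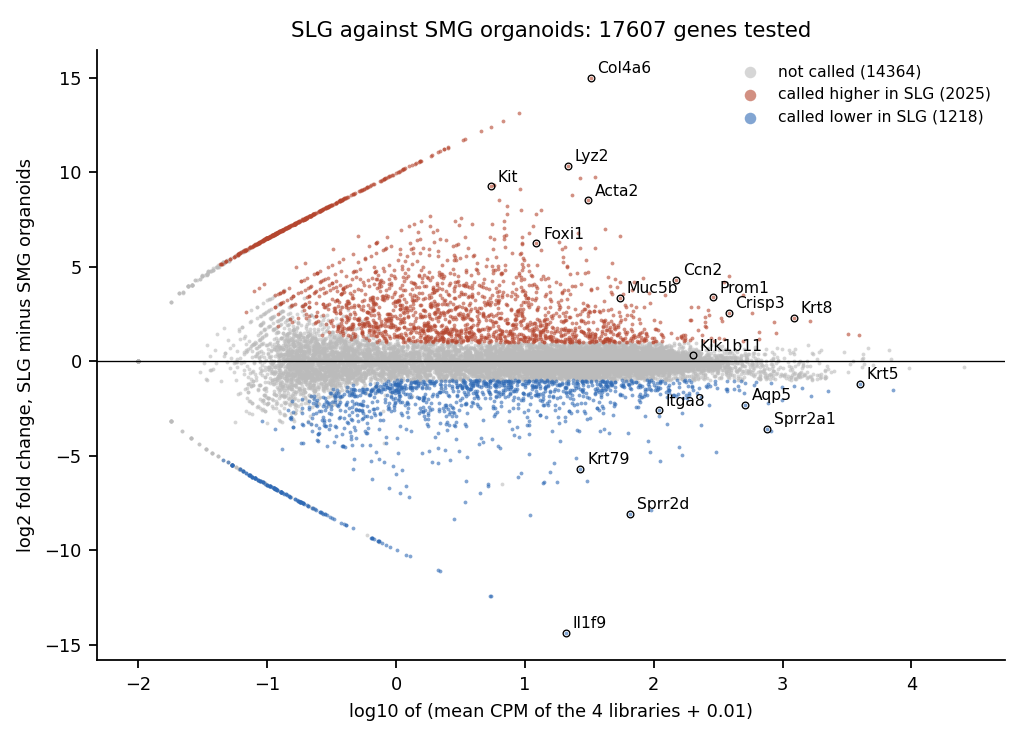
Log2 fold change of SLG relative to SMG organoids for 17607 genes (vertical axis) against log10 of the mean CPM of the 4 libraries plus 0.01 (horizontal axis), with 2025 genes called higher in red and 1218 called lower in blue. Col4a6 lies highest and Il1f9 lowest; the 2 straight edges are genes with 0 counts in one gland, whose fitted fold change depends on a prior count.

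Genes that the study names for one gland or the other were compared first. Wnt5b (gene 22419, chromosome 6, 119432531 to 119544824 of GRCm38), a Wnt ligand, was at 35.6 and 35.9 CPM in SLG organoids, against 2.47 and 3.4 CPM in SMG organoids, a log2 fold change of 3.61 (SE 0.162, edgeR adjusted p = 1.01e-07). Dcpp3 (gene 620253, chromosome 17, 23917419 to 23919441), one of a cluster of demilune cell and parotid proteins of saliva, was at 696 and 644 CPM in SLG organoids, against 286 and 352 CPM in SMG organoids. Its log2 fold change was 1.07 (SE 0.141, edgeR adjusted p = 0.000243), and it fell to 0.98 and 0.93, under the fold threshold, without SLG replicate 1 and without SMG replicate 1. Sox2 (gene 20674, chromosome 3, 34649995 to 34652461), a transcription factor of salivary progenitors, was at 93.8 and 87 CPM in SLG organoids, against 52.9 and 51.8 CPM in SMG organoids and missed the fold threshold, with a log2 fold change of 0.79 (SE 0.0723, edgeR adjusted p = 1.15e-05). With limma on TPM it passed that threshold, at 1.03 for log2(TPM + 1) and 1.05 for log2(TPM + 0.1). Smgc was at 77.7 and 84 CPM in SLG organoids, against 11.4 and 12.3 CPM in SMG organoids, and was named after its values were seen. It shares its locus with the mucin gene Muc19, and its reads may belong to either transcript. Muc19 itself was not analysed here. Of the genes tied to the SMG, Sema3b (gene 20347, chromosome 9, 107597674 to 107609241), a secreted guidance factor, was at 84.2 and 74.8 CPM in SLG organoids, against 281 and 271 CPM in SMG organoids, with a log2 fold change of −1.80 (SE 0.0873, edgeR adjusted p = 1.57e-07). Itga8 (gene 241226, chromosome 2, 12106632 to 12301985), an integrin subunit, was at 29.6 and 33 CPM in SLG organoids, against 175 and 197 CPM in SMG organoids, with a log2 fold change of −2.57 (SE 0.0844, edgeR adjusted p = 1.86e-08). Apart from Smgc, these genes were picked by the study on its own libraries, so their direction here is not independent evidence. The study also measured Itga8, Dcpp3 and Sox2 by qRT-PCR in organoids of both glands and refers to a tissue database. It names Sox2 as SLG-specific, and Klk1 and Klk1b11 as SMG-specific. With edgeR, Sox2 (log2 fold change 0.79), Klk1 (0.07) and Klk1b11 (0.32) were not called. The study left out genes for which a library had no counts and used a different test. With DESeq2 in place of edgeR no named gene gained or lost a call. With genes that had a 0 count left out, none of the named genes still tested did so. Its figure names a p-value and its methods an adjusted p-value.

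Glandular kallikreins and other granular duct products were called between the organoids at shares near those of all genes. Klk1 (gene 16612, chromosome 7, 44225360 to 44229622), the tissue kallikrein, was at 14.2 and 13.5 CPM in SLG organoids, against 8.89 and 17.5 CPM in SMG organoids. Its log2 fold change was 0.07 (SE 0.293, edgeR adjusted p = 0.876), and its sign turned to −0.34 without SMG replicate 1. Klk1b11 (gene 16613, chromosome 7, 43995877 to 43999875), a neighbour in the same cluster, was at 230.5 and 217 CPM in SLG organoids, against 166 and 193 CPM in SMG organoids, with a log2 fold change of 0.32 (SE 0.0837, edgeR adjusted p = 0.00954). Of 18 tested kallikreins of the Klk1 family and other granular duct products, 3 were higher (16.7%) and 1 was lower (5.56%). Over all genes these shares were 11.5% and 6.92%. The other 14 were not called, and the median log2 fold change of the 18 was 0.23, against 0.00123 over all genes. The member that was lower was Klk1b26, at 3.65 and 3.32 CPM in SLG organoids, against 20.4 and 22 CPM in SMG organoids, a log2 fold change of −2.60. The 3 that were higher were Crisp3, Egf and Esp18. Crisp3, a cysteine-rich secretory protein, was at 653 and 657 CPM in SLG organoids, against 87.1 and 135 CPM in SMG organoids, with a log2 fold change of 2.56 (SE 0.186, edgeR adjusted p = 2.16e-05). Egf, the growth factor stored in granular ducts, was at 1.18 and 1.62 CPM in SLG organoids, against 0.359 and 0.44 CPM in SMG organoids. The Klk1 genes are near-identical neighbours, as are the Dcpp genes, and their reads may have been divided between copies.

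Muc5b and Agr2 of mucous secretion were higher in SLG organoids, as were most mucin and mucus genes tested. Muc5b (gene 74180, chromosome 7, 141839059 to 141873089), a gel-forming salivary mucin, was at 103 and 96 CPM in SLG organoids, against 12 and 7.28 CPM in SMG organoids, with a log2 fold change of 3.37 (SE 0.218, edgeR adjusted p = 1.85e-05). Agr2 (gene 23795, chromosome 12, 35992925 to 36004081), a disulfide isomerase needed for mucin folding, was at 20.5 and 25.8 CPM in SLG organoids, against 1.22 and 1.87 CPM in SMG organoids, with a log2 fold change of 3.90 (SE 0.213, edgeR adjusted p = 3.34e-07). Both SLG libraries lay above both SMG libraries by several fold for each. Spdef, a transcription factor of mucous cells, was less far apart, at 45.5 and 42.5 CPM in SLG organoids, against 19 and 18.8 CPM in SMG organoids, with a log2 fold change of 1.22 on the log2 scale. Of 18 tested mucin and mucus genes 11 were higher and 2 lower, with a median of 1.51 (1.29 with members at 0 in one gland set at their bound). With log2(TPM + 1), 7 of 10 were higher. Fcgbp, a mucus-binding protein, was at 5.15 CPM in SLG and 0.902 CPM in SMG organoids, whereas the membrane mucin Muc15 was lower, at 0.696 CPM in SLG and 5.14 CPM in SMG organoids. Of 36 genes of O-glycan synthesis and capping 14 were higher and 5 lower. Gcnt1, which branches O-glycans into core structures, was at 25.8 and 25.3 CPM in SLG organoids, against 1.36 and 1.12 CPM in SMG organoids, with a log2 fold change of 4.36 (SE 0.136, edgeR adjusted p = 1.47e-08). The sialyltransferase gene St6galnac2 was at 77.9 and 71.1 CPM in SLG organoids, against 7.95 and 8.13 CPM in SMG organoids, a log2 fold change of 3.21, whereas its relative St6galnac6 was lower at a log2 fold change of −2.24. Galnt7, which starts or extends O-glycosylation, had a log2 fold change of 1.97, the galactosyltransferase gene B3galt5 3.58 and Galnt12 1.31.

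Among serous and other salivary proteins 10 of 24 tested were higher and 2 lower. Lyz2 (gene 17105, chromosome 10, 117277541 to 117282272), a lysozyme, had 3308 and 2495 counts in SLG organoids, against 0 and 4 counts in SMG organoids. Its log2 fold change was 10.34 (SE 0.413, edgeR adjusted p = 1.43e-07). Lyz2 is also a macrophage gene, and it held 46.6 and 40.0 of the 48.9 and 42.1 CPM that 10 macrophage and leukocyte markers summed to in SLG organoids, against 11 and 9.33 CPM in SMG organoids. Of the 4 markers of that list that were tested, Lyz2 and Csf1r were higher and Cd68 and Itgam lower. Csf1r, the receptor of a macrophage growth factor, had 24 and 18 counts in SLG organoids, against 0 and 0 counts in SMG organoids, an adjusted p of 0.0139 from edgeR. Cd68, a lysosomal protein of macrophages, was at 1.39 CPM in SLG and 7.23 CPM in SMG organoids, and Itgam, a leukocyte integrin, at 0.491 CPM in SLG and 2.87 CPM in SMG organoids. Ptprc, Adgre1, Cd79a and Nkg7 were at 0 in all 4 libraries, and the part of leukocyte RNA in the Lyz2 difference was not tested. Bpifb1, an antibacterial protein of mucosal fluids, was at 54.9 and 54.2 CPM in SLG organoids, against 8.06 and 9.01 CPM in SMG organoids, with a log2 fold change of 2.68 (SE 0.0969, edgeR adjusted p = 2.96e-08). Wfdc18, a small secreted protein, was among the most abundant transcripts, at 5322 and 5951 CPM in SLG organoids, against 2114 and 2166 CPM in SMG organoids, a log2 fold change of 1.40. The chemokine gene Ccl28, secreted into saliva, had a log2 fold change of 2.11 and Gp2, a glycoprotein of secretory granule membranes, 2.65. Dmbt1 (gene 12945, chromosome 7, 131032057 to 131121628), a salivary agglutinin that binds bacteria, had 1069 and 728 counts in SLG organoids, against 0 and 0 counts in SMG organoids, so that it was at least 284-fold higher. Csn3, a milk casein, was lower, at 4.96 and 3.4 CPM in SLG organoids, against 25.6 and 38 CPM in SMG organoids, a log2 fold change of −2.92.

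More acinar genes were higher than lower in SLG organoids, though not Aqp5, and the receptors through which nerves drive secretion were mostly higher. Of 21 genes of acinar differentiation 8 were higher (38.1%) and 2 lower (9.52%), beside 11.5% and 6.92% of all genes. The other 11 were not called, and the median was 0.91 (0.87 with members at 0 in one gland set at their bound). Prom1 (gene 19126, chromosome 5, 43993621 to 44102047), a protein of apical membrane protrusions in secretory cells, was at 531 and 516 CPM in SLG organoids, against 48.1 and 50.8 CPM in SMG organoids, with a log2 fold change of 3.40 (SE 0.0976, edgeR adjusted p = 9.8e-09). Bhlha15, which encodes the acinar factor MIST1, was at 7.73 and 6.71 CPM in SLG organoids, against 0.953 and 1.05 CPM in SMG organoids, with a log2 fold change of 2.85 (SE 0.215, edgeR adjusted p = 3.01e-06), a low level in both. Between the tissues of the 2 glands it was called the other way, lower in SLG. Slc12a2, the chloride importer of secreting cells, was at 406 and 378 CPM in SLG organoids, against 95.9 and 119 CPM in SMG organoids, a log2 fold change of 1.87. Cldn10, a tight junction protein of acini, was at 85.7 and 83.1 CPM in SLG organoids, against 3.12 and 4.4 CPM in SMG organoids, with a log2 fold change of 4.49. For each of these genes both SLG libraries lay above both SMG libraries. Aqp5 (gene 11830, chromosome 15, 99591028 to 99594829), the apical water channel, went the other way, at 188 and 157 CPM in SLG organoids, against 890.2 and 814 CPM in SMG organoids, with a log2 fold change of −2.30 (SE 0.0982, edgeR adjusted p = 7.1e-08). Ano1, the apical chloride channel, was at 63.8 and 55.3 CPM in SLG organoids, against 47.4 and 51.4 CPM in SMG organoids and was not called (log2 fold change 0.27).

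Of 13 neurotransmitter and peptide receptors 9 were higher and none lower, with a median of 3.50 (3.02 with members at 0 in one gland set at their bound). Chrm3 (gene 12671, chromosome 13, 9875486 to 10361062), the muscarinic receptor that drives fluid secretion, was at 19.8 and 17.9 CPM in SLG organoids, against 0.578 and 0.598 CPM in SMG organoids, with a log2 fold change of 5.00 (SE 0.187, edgeR adjusted p = 3.37e-08). Adrb1, the β1-adrenergic receptor of protein secretion, was at 11.9 and 10.8 CPM in SLG organoids, against 0.266 and 0.519 CPM in SMG organoids, with a log2 fold change of 4.85 (SE 0.278, edgeR adjusted p = 4.56e-07). Tacr1, the substance P receptor, had 133 and 88 counts in SLG organoids, against 0 and 0 counts in SMG organoids and was at least 34.9-fold higher. The adrenergic receptor gene Adra2a was at 1.53 CPM in SLG and 0.133 CPM in SMG organoids, and the protease-activated receptor gene F2rl1 at 67.1 CPM in SLG and 31.3 CPM in SMG organoids. Of 26 genes of regulated exocytosis 10 were higher and 2 lower. Cadps2 (gene 320405, chromosome 6, 23262773 to 23841175), which primes secretory vesicles, was at 70.0 and 68.7 CPM in SLG organoids, against 0 and 0.157 CPM in SMG organoids, with a log2 fold change of 9.75 (SE 0.357, edgeR adjusted p = 1.76e-07). Rab27a, a GTPase of granules, was at 98.6 CPM in SLG and 20.6 CPM in SMG organoids, Unc13b, a priming factor, at 46.7 CPM in SLG and 11.6 CPM in SMG organoids, and Cplx2, a complexin, at 2.88 CPM in SLG and 0.118 CPM in SMG organoids. With log2(TPM + 1), 3 of 7 receptors and 4 of 16 exocytosis genes were higher. Of 34 genes of the endoplasmic reticulum 4 were higher and none lower, a share higher near the 11.5% over all genes, and 7 of 32 were higher with log2(TPM + 1). Called members included Creb3l4 (log2 fold change 3.73), a membrane-bound transcription factor, and Pdia5 (log2 fold change 2.96), a disulfide isomerase.

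Of luminal duct genes 10 of 20, and of ionocyte genes 11 of 14, were higher in SLG organoids, against 11.5% of all genes. Krt8 (gene 16691, chromosome 15, 101996711 to 102004342), a keratin of luminal cells, was at 2057 and 2016 CPM in SLG organoids, against 432 and 395 CPM in SMG organoids, with a log2 fold change of 2.30 (SE 0.11, edgeR adjusted p = 1.4e-07). Krt19 was at 543 and 565 CPM in SLG organoids, against 147 and 105 CPM in SMG organoids, a log2 fold change of 2.13, whereas Krt7 (log2 fold change 0.86) and Krt18 (log2 fold change 0.45) were not called. No luminal gene was lower. Cldn7 (gene 53624, chromosome 11, 69964779 to 69967886), a claudin, was at 159.5 and 158 CPM in SLG organoids, against 7.11 and 8.09 CPM in SMG organoids, with a log2 fold change of 4.38 (SE 0.162, edgeR adjusted p = 1.07e-07). Kit (gene 16590, chromosome 5, 75574987 to 75656722), the receptor tyrosine kinase of salivary ducts and of acinar progenitors, had 815 and 640 counts in SLG organoids, against 2 and 0 counts in SMG organoids, a ratio of 696 with a 95% counting interval of 192 to 5750 (exact binomial). No ionocyte gene was lower, and their median was 5.42 (4.16 with members at 0 in one gland set at their bound). Foxi1 (gene 14233, chromosome 11, 34204341 to 34208089), which specifies ionocytes, was at 24.7 and 23.6 CPM in SLG organoids, against 0.203 and 0.425 CPM in SMG organoids, with a log2 fold change of 6.26 (SE 0.328, edgeR adjusted p = 4.77e-07). Ascl3 (gene 56787, chromosome 7, 109727465 to 109731732), a transcription factor of salivary ionocytes, was at 19.3 and 16.5 CPM in SLG organoids, against 0.422 and 0.267 CPM in SMG organoids, with a log2 fold change of 5.69 (SE 0.413, edgeR adjusted p = 5.87e-06). Cftr (gene 12638, chromosome 6, 18170687 to 18322770) was at 35.7 and 35.8 CPM in SLG organoids, against 2.37 and 3.23 CPM in SMG organoids, with a log2 fold change of 3.67 (SE 0.148, edgeR adjusted p = 5.05e-08). The factors that specify ionocytes and their chloride channel were thus higher in both SLG libraries. Atp6v0d2, a subunit of the proton pump, was at 11.6 and 11.6 CPM in SLG organoids, against 0.187 and 0.315 CPM in SMG organoids, with a log2 fold change of 5.52. Stap1, a signaling adaptor found in ionocytes, had 792 and 723 counts in SLG organoids, against 0 and 2 counts in SMG organoids, a ratio of 725 with a counting interval of 200 to 5990. The transcription factor gene Tfcp2l1 was high in both, at 4663 and 4821 CPM in SLG organoids, against 1748 and 1704 CPM in SMG organoids. The SMG levels of Foxi1, Ascl3 and Atp6v0d2 were far below their SLG levels. With genes that had a 0 count left out, 5 of 7 ionocyte genes were higher.

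Of 44 genes of ion transport in acini and ducts 18 were higher and 6 lower. Slc5a8, a sodium-coupled transporter of monocarboxylates, was at 402 and 381 CPM in SLG organoids, against 50.9 and 54.8 CPM in SMG organoids, with a log2 fold change of 2.89 (SE 0.0701, edgeR adjusted p = 3.39e-09). Scnn1a, a subunit of the epithelial sodium channel that reclaims sodium in ducts, was at 133 and 123 CPM in SLG organoids, against 17.7 and 17.5 CPM in SMG organoids, with a log2 fold change of 2.86 (SE 0.0748, edgeR adjusted p = 5.04e-09). Car2, a carbonic anhydrase of bicarbonate secretion, was at 18.5 and 18.4 CPM in SLG organoids, against 0.453 and 0.582 CPM in SMG organoids, with a log2 fold change of 5.15. The potassium channel gene Kcnj15 was at 128 and 125 CPM in SLG organoids, against 26.4 and 26.5 CPM in SMG organoids, with a log2 fold change of 2.26.

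Smooth muscle genes of myoepithelial cells stood at an appreciable level in SLG organoids and close to 0 in SMG organoids. Acta2 (gene 11475, chromosome 19, 34240336 to 34255585), smooth muscle actin, was at 64.3 and 58.6 CPM in SLG organoids, against 0.203 and 0.126 CPM in SMG organoids, with a log2 fold change of 8.53 (SE 0.281, edgeR adjusted p = 1.06e-07). Tagln (gene 21345, chromosome 9, 45929628 to 45936058), an actin-binding protein, was at 11.7 and 13.1 CPM in SLG organoids, against 0.0312 and 0.0315 CPM in SMG organoids, with a log2 fold change of 8.54 (SE 0.253, edgeR adjusted p = 1.16e-08). Myl9 (gene 98932, chromosome 2, 156775408 to 156781657), a myosin light chain, was at 26.5 and 25.9 CPM in SLG organoids, against 0.297 and 0.598 CPM in SMG organoids, with a log2 fold change of 5.87 (SE 0.306, edgeR adjusted p = 1.33e-06). Cnn1, calponin, had 161 and 106 counts in SLG organoids, against 0 and 0 counts in SMG organoids and was at least 42.2-fold higher. Myh11, smooth muscle myosin, was low in both, at 1.31 and 1.77 CPM in SLG organoids, against 0.109 and 0.189 CPM in SMG organoids, with a log2 fold change of 3.35. Of 13 myoepithelial genes 9 were higher and 1 lower, with a median of 3.35 (1.73 with members at 0 in one gland set at their bound), and the member that was lower was Itga8. Ltbp2, a matrix protein, was at 19.1 CPM in SLG and 5.75 CPM in SMG organoids. The pericyte gene Rgs5, at 9.17 CPM in SLG and 0.439 CPM in SMG organoids, moved with this group, and 8 endothelial and pericyte markers summed to 13.3 and 13.8 CPM in SLG and 2.48 and 2.31 CPM in SMG organoids. Kdr, Emcn and Cldn5 of that list were at 0 in all 4 libraries, and the part of pericyte RNA in the smooth muscle result was not tested. Acta1, skeletal muscle actin, had 285 and 263 counts in SLG organoids, against 4 and 0 counts in SMG organoids, while Ckm and Des of the same tissue were at 0. Of the 4 skeletal muscle markers tested, 1 was higher and 2 were lower in SLG organoids. The 8 listed summed to 5.34 and 5.39 CPM in SLG and 3.36 and 3.62 CPM in SMG organoids. With genes that had a 0 count left out, 5 of 9 myoepithelial genes were higher.

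Genes induced by the Hippo pathway effector YAP, which acts with TEAD factors, were also among those higher. Of 21 targets and members 8 were higher and 1 lower, with a median of 0.24, and the effector genes Yap1 and Tead1 were not called. Ccn2 (gene 14219, chromosome 10, 24595442 to 24598683), a matricellular protein, was at 297 and 270.4 CPM in SLG organoids, against 14.3 and 14.4 CPM in SMG organoids, with a log2 fold change of 4.31 (SE 0.0817, edgeR adjusted p = 8.15e-10). Ccn1 was at 66.7 and 63.5 CPM in SLG organoids, against 10.4 and 9.93 CPM in SMG organoids, with a log2 fold change of 2.68 (SE 0.101, edgeR adjusted p = 3.4e-08). Ankrd1, an ankyrin repeat protein, was at 9 and 7.53 CPM in SLG organoids, against 0.297 and 0.346 CPM in SMG organoids, with a log2 fold change of 4.68 (SE 0.257, edgeR adjusted p = 3.39e-07). The libraries of a gland lay close together against the gap between the glands. Edn1, endothelin 1, was at 26.7 and 27.4 CPM in SLG organoids, against 1.12 and 1.54 CPM in SMG organoids, with a log2 fold change of 4.34, and Fstl1, a secreted glycoprotein, at 41.2 and 38.8 CPM in SLG organoids, against 0.765 and 0.44 CPM in SMG organoids, with a log2 fold change of 6.05. The letters GGAATG, the core of the TEAD motif, were searched on both strands in the 250 bases before each gene's start, from RefSeq on GRCm38.p6. They occurred in 10 of the 16 listed genes with a promoter in the table (62.5%) and in 12.6% of all 27025 promoters. A match of letters is a description and not a bound site. The windows of 3 members that were higher are shown 5′ to 3′ along the gene to let this motif be seen, with matches to GGAATG or its reverse complement, and to the TATA box letters TATAAA, in capitals.
Ccn1, chr3:145649986-145650235, minus strand: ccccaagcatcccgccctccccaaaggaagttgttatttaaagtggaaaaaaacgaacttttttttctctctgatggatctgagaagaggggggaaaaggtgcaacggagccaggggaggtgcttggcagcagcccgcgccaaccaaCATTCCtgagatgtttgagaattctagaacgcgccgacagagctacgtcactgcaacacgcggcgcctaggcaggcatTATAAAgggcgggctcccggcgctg
Ankrd1, chr19:36119845-36120094, minus strand: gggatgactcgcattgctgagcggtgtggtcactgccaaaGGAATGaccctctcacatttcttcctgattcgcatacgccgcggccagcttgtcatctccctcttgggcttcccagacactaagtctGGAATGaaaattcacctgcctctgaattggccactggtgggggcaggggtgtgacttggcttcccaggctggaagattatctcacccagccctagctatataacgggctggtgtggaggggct
Edn1, chr13:42301226-42301475, plus strand: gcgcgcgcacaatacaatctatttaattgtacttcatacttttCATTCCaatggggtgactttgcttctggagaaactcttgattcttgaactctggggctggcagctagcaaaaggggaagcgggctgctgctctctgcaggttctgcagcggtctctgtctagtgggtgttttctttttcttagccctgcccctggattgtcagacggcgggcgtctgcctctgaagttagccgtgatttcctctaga

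Basement membrane genes moved in both directions. Of 41 integrins, laminins and collagens 12 were higher and 7 lower. Without genes that had a 0 count, 6 of 34 were higher. Col4a6 (gene 94216, chromosome X, 141165403 to 141474095), the α6 chain of type IV collagen, had 4538 and 4065 counts in SLG organoids, against 0 and 0 counts in SMG organoids, the highest fitted fold change of the comparison. At 63.9 and 65.2 CPM in SLG organoids it was at least 1373-fold higher (adjusted p = 6.04e-09 from edgeR). Col4a5, which starts 1343 bases away on the other strand and was named after its values were seen, was at 120.2 and 114 CPM in SLG organoids, against 97.7 and 100.1 CPM in SMG organoids and was not called (log2 fold change 0.25). Fn1, fibronectin, was at 173 and 168 CPM in SLG organoids, against 13.7 and 13.8 CPM in SMG organoids, with a log2 fold change of 3.64 (SE 0.0756, edgeR adjusted p = 1.29e-09), and Col4a1 at 129.7 and 124 CPM in SLG organoids, against 45.7 and 49 CPM in SMG organoids, with a log2 fold change of 1.42. The laminin chain gene Lamb1 was lower, at 24.3 and 22.8 CPM in SLG organoids, against 126 and 127 CPM in SMG organoids, with a log2 fold change of −2.42 (SE 0.077, edgeR adjusted p = 1.62e-08). Of 19 basal duct genes 1 was higher and 2 were lower, beside 11.5% and 6.92% of all genes, with a median of −0.21. Krt5 (gene 110308, chromosome 15, 101707069 to 101712905) was at 2433 and 2434 CPM in SLG organoids, against 5846 and 5208 CPM in SMG organoids, with a log2 fold change of −1.18 (SE 0.0853, edgeR adjusted p = 2.12e-06), and at −0.92 with log2(TPM + 1) it missed the threshold. Krt15 was lower at a log2 fold change of −1.52, and Dlk2, a Notch ligand-like membrane protein, was higher at a log2 fold change of 1.93. Krt14 (log2 fold change −0.65), Trp63 (log2 fold change −0.62), the basal master regulator, and Col17a1 (log2 fold change −0.92), a hemidesmosome collagen, were not called.

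**Figure D2:**
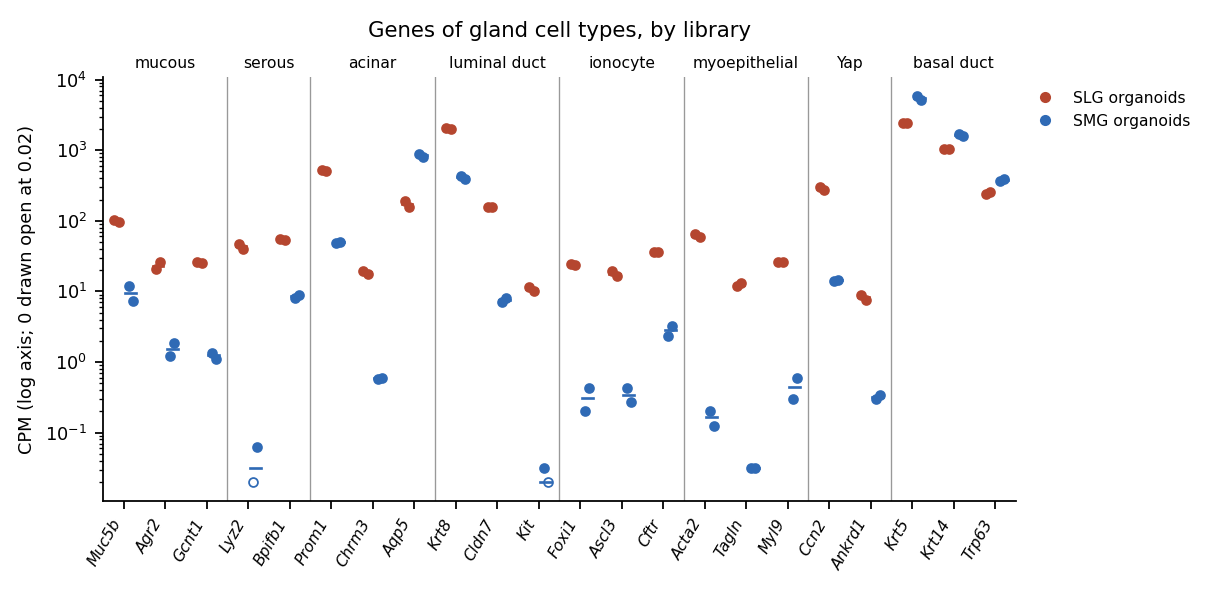
CPM on a log axis for 22 genes of gland cell types, with 1 point per library, SLG organoids in red left of SMG organoids in blue, bars at the means and libraries at 0 drawn open. Muc5b, Foxi1, Acta2 and Ccn2 lie higher in SLG organoids without overlap, Aqp5 and Krt5 lie lower, and Lyz2, Kit and Tagln are at or near 0 in SMG organoids.

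Most genes of the stratified epithelial surface were lower in SLG organoids. Of 43 suprabasal keratins and cornified envelope genes 29 were lower and 2 higher, with a median log2 fold change of −2.62 (−2.53 with members at 0 in one gland set at their bound). With genes that had a 0 count left out, 19 of 31 were lower. Sprr2a1, a small proline-rich protein crosslinked into the envelope, was at 116 and 120.3 CPM in SLG organoids, against 1602 and 1204 CPM in SMG organoids, with a log2 fold change of −3.57 (SE 0.14, edgeR adjusted p = 6.48e-08). Sprr2d (gene 20758, chromosome 3, 92339140 to 92340873) was at 0.507 and 0.465 CPM in SLG organoids, against 154 and 107 CPM in SMG organoids, with a log2 fold change of −8.06 (SE 0.373, edgeR adjusted p = 9.72e-06). Both SLG libraries lay below both SMG libraries for each. Sprr2f was at 0.577 and 1.09 CPM in SLG organoids, against 225 and 153 CPM in SMG organoids, with a log2 fold change of −7.84, and Sprr2g (log2 fold change −8.14) and Sprr2h (log2 fold change −6.44) were lower too. Sprr2e had 0 and 0 counts in SLG organoids, against 798 and 565 counts in SMG organoids and was at least 236-fold lower. The Sprr2 genes are close copies in 1 cluster on chromosome 3, and their counts may be shared between copies. Sprr1b (gene 20754, chromosome 3, 92436808 to 92438817) was at 0.535 and 0.513 CPM in SLG organoids, against 36.2 and 25.4 CPM in SMG organoids, with a log2 fold change of −5.87 (SE 0.203, edgeR adjusted p = 3.3e-08). Cnfn, cornifelin, had 0 and 0 counts in SLG organoids, against 984 and 407 counts in SMG organoids and was at least 241-fold lower, and with SMG libraries more than 2-fold apart its adjusted p was 0.0201 (edgeR), and 0.0664 and 0.0611 without SLG replicate 1 and 2. Dmkn, dermokine of the upper epidermis, was at 22.2 and 23.2 CPM in SLG organoids, against 255 and 203 CPM in SMG organoids, with a log2 fold change of −3.34 (SE 0.111, edgeR adjusted p = 2.16e-08). Lypd3, an adhesion protein of suprabasal cells, had a log2 fold change of −3.61, the calmodulin-like Calml3 −1.85, the keratin Krt79 −5.68 and Crct1, a cysteine-rich protein of the same cluster as the Sprr genes, −6.37.

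The TATA box letters TATAAA, searched on both strands in the same 250 bases, occurred in 18 of 37 listed genes of this group with a promoter in the table (48.6%) and in 13% of all promoters. The windows of Sprr2d and Sprr1b show where the match lies, marked as before, and that of Sprr1b also holds a GGAATG match. The start used for Sprr1b lies inside the gene bounds given above, so its window reaches into them.
Sprr2d, chr3:92338890-92339139, plus strand: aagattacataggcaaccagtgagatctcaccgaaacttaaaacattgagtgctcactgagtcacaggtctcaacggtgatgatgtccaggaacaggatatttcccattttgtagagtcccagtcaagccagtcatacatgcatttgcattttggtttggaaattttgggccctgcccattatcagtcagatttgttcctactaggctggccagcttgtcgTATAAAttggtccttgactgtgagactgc
Sprr1b, chr3:92438780-92439029, minus strand: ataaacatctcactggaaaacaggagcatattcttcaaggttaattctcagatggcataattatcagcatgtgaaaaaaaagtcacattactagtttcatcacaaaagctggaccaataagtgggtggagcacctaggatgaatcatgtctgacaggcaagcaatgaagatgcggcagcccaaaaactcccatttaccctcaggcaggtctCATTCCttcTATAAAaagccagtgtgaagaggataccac

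Kallikreins outside the Klk1 family, proteases that shed cornified cells in skin, fell with this group. Of 9 tested, from 12 listed, 8 were lower and none higher, with a median of −6.75 (−3.54 with members at 0 in one gland set at their bound). With log2(TPM + 1), 3 of 3 were lower. Klk9, Klk10, Klk12 and Klk14 had 0 counts in both SLG libraries and passed the low-count filter only through other organoid groups. These members could not have been called higher. Klk8, the most abundant, was at 5.86 and 5.94 CPM in SLG organoids, against 42.4 and 36.3 CPM in SMG organoids, with a log2 fold change of −2.74 (SE 0.115, edgeR adjusted p = 6.5e-08). The remaining members were low in SMG organoids and at or near 0 in SLG organoids. Klk14 had 0 and 0 counts in SLG organoids, against 232 and 90 counts in SMG organoids, at least 55.8-fold lower, Klk12 was at least 27.9-fold lower and Klk10 at least 44.7-fold lower. Klk7 was at 0.0481 CPM in SLG and 1.33 CPM in SMG organoids and Klk9 had 0 counts in SLG organoids. Klk10 lost its call without either SLG library, at adjusted p = 0.0775 and 0.0699 from edgeR. Of 52 genes of innate sensing, cytokines and defence 18 were lower and 7 higher, with a median of −0.56. Il1f9 (gene 215257, chromosome 2, 24186476 to 24193567), the gene of interleukin-36γ of inflamed epithelia, had 0 and 0 counts in SLG organoids, against 2725 and 2539 counts in SMG organoids, so that it was at least 913-fold lower (adjusted p = 3.18e-07 from edgeR). Il1a (gene 16175, chromosome 2, 129299609 to 129310186), interleukin-1α, was at 1.34 and 1.49 CPM in SLG organoids, against 52.3 and 44.9 CPM in SMG organoids, with a log2 fold change of −5.10 (SE 0.195, edgeR adjusted p = 1.3e-07). Il1f6, interleukin-36α, was at 0.0422 and 0.128 CPM in SLG organoids, against 7.42 and 6.31 CPM in SMG organoids, with a log2 fold change of −6.34, and Il1rn, the receptor antagonist, at 26.2 and 24.4 CPM in SLG organoids, against 88.6 and 77.8 CPM in SMG organoids, with a log2 fold change of −1.72. Reg3g, an antibacterial lectin, was higher, at 54.6 and 63.2 CPM in SLG organoids, against 8.36 and 10.3 CPM in SMG organoids, with a log2 fold change of 2.66 (SE 0.128, edgeR adjusted p = 1.57e-07).

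Of 36 cell cycle genes tested 9 were lower and none higher in SLG organoids, 34 had a negative log2 fold change, and the median was −0.65. Ube2c, which tags cyclins for destruction, was at 17.4 and 17.2 CPM in SLG organoids, against 37.6 and 40.2 CPM in SMG organoids, with a log2 fold change of −1.17 (SE 0.0954, edgeR adjusted p = 5.23e-06). Cenpa, the centromeric histone, was at 11.4 and 10.1 CPM in SLG organoids, against 28.2 and 23.7 CPM in SMG organoids, with a log2 fold change of −1.27, Tpx2, a spindle factor, had a log2 fold change of −1.06 and Rrm2, a subunit of ribonucleotide reductase, −1.06. Their changes lay near the 2-fold threshold: 4 were lower with whole-library totals as the scaling, which moved the median of all genes by 0.117, 5 without SMG replicate 2 and 1 with log2(TPM + 1). Ccnd1, cyclin D1, was at 325 and 301 CPM in SLG organoids, against 649 and 633 CPM in SMG organoids, with a log2 fold change of −1.04 (SE 0.0747, edgeR adjusted p = 2.12e-06), and the inhibitor genes Cdkn1a (log2 fold change −1.37) and Cdkn2b (log2 fold change −1.68) were lower as well. Ccnd1 missed the fold threshold with whole-library totals, at −0.92, and with log2(TPM + 1), at −0.77. Mycn, a transcription factor of proliferating progenitors, was higher, at 5.91 and 5.66 CPM in SLG organoids, against 0.25 and 0.252 CPM in SMG organoids, with a log2 fold change of 4.52.

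**Figure D3:**
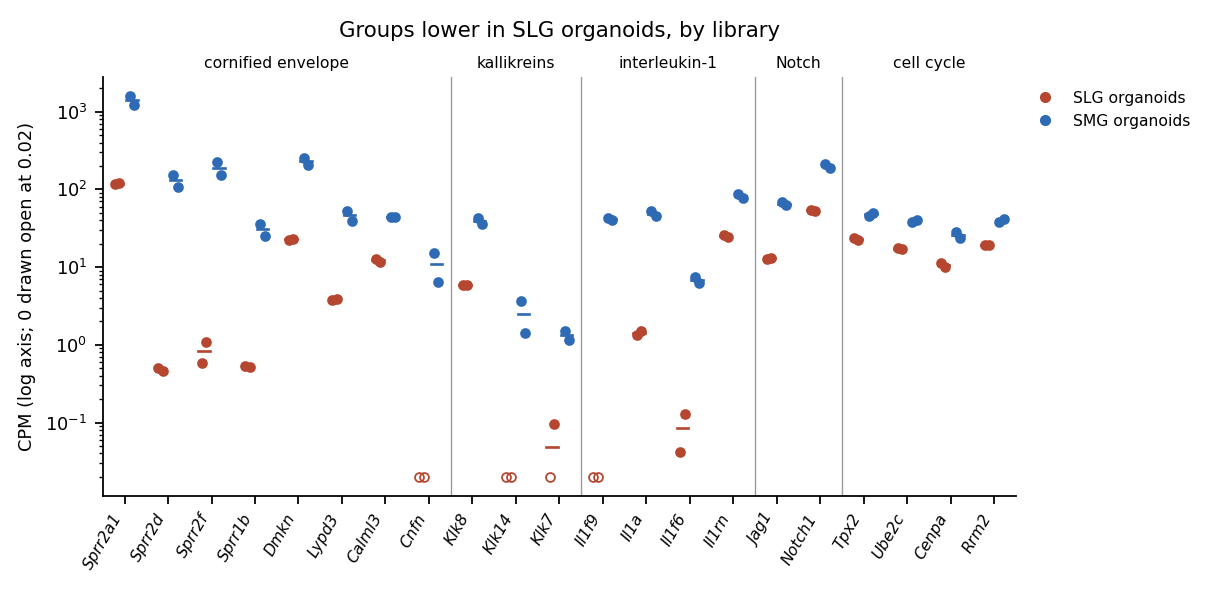
CPM on a log axis for 21 genes of groups that were lower in SLG organoids, with 1 point per library, SLG organoids in red left of SMG organoids in blue, bars at the means and libraries at 0 drawn open. Sprr2d lies at 0.507 and 0.465 CPM in SLG organoids against 154 and 107 CPM in SMG organoids, Il1f9 is at 0 in both SLG libraries, and the cell cycle genes differ least.

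Signaling and patterning genes moved gene by gene. Jag1, a Notch ligand, was at 12.7 and 13.2 CPM in SLG organoids, against 69 and 62.9 CPM in SMG organoids, with a log2 fold change of −2.35 (SE 0.126, edgeR adjusted p = 4.74e-07), and the receptor gene Notch1 at 55 and 53.4 CPM in SLG organoids, against 214 and 187 CPM in SMG organoids, with a log2 fold change of −1.89 (SE 0.0803, edgeR adjusted p = 6.97e-08). Notch2 (log2 fold change 1.28) and the regulator Dtx4 (log2 fold change 1.25) were higher. In all 3 of 19 Notch pathway genes were higher (15.8%) and 4 lower (21.1%), beside 11.5% and 6.92% of all genes. Of 46 Wnt pathway genes 12 were higher (26.1%) and 4 lower (8.7%). Without genes that had a 0 count, 7 of 38 were higher. Axin2, a feedback target of β-catenin, was at 13.2 and 12.3 CPM in SLG organoids, against 1.16 and 1.9 CPM in SMG organoids, with a log2 fold change of 3.06 (SE 0.219, edgeR adjusted p = 2.01e-06). Dkk3, a member of the Dickkopf family, was at 10.9 and 10.3 CPM in SLG organoids, against 0.5 and 0.629 CPM in SMG organoids, with a log2 fold change of 4.23, whereas Sfrp1, a secreted Wnt inhibitor, was lower, at 186 and 176 CPM in SLG organoids, against 392 and 446 CPM in SMG organoids, with a log2 fold change of −1.21, and missed the fold threshold at −0.94 with log2(TPM + 1). Porcn, which lipidates Wnt proteins, was lower at a log2 fold change of −1.65. Of 42 developmental regulators of the salivary glands 6 were higher (14.3%), near the share of all genes, and 10 lower (23.8%). Of these, 6 of 29 were lower without genes that had a 0 count. Tfap2b, an AP-2 transcription factor, was at 12.8 and 13 CPM in SLG organoids, against 0.5 and 0.834 CPM in SMG organoids, with a log2 fold change of 4.27 (SE 0.174, edgeR adjusted p = 5.45e-08), whereas its relative Tfap2c was lower, at 45.3 and 40.9 CPM in SLG organoids, against 130.5 and 128 CPM in SMG organoids, with a log2 fold change of −1.58 (SE 0.074, edgeR adjusted p = 1.25e-07). Six2, a homeodomain factor, was at 49.6 CPM in SLG and 7.38 CPM in SMG organoids, and the T-box gene Tbx3 at 9.96 CPM in SLG and 31.8 CPM in SMG organoids. Msx1, a homeobox gene of oral development, had 0 and 0 counts in SLG organoids, against 109 and 117 counts in SMG organoids and was at least 39.2-fold lower.

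Of 44 interferon response genes 20 were higher and 1 lower in SLG organoids, against 11.5% and 6.92% of all genes, with a median of 0.99, and most members were not called. With log2(TPM + 1), 13 of 32 were higher. Irgm1, an immunity-related GTPase, was at 59.5 and 59.9 CPM in SLG organoids, against 17.7 and 21.1 CPM in SMG organoids, with a log2 fold change of 1.62 (SE 0.0949, edgeR adjusted p = 5.15e-07). Parp14 was at 33.8 and 34.1 CPM in SLG organoids, against 7.61 and 7.19 CPM in SMG organoids, with a log2 fold change of 2.20, the RNA sensor gene Ifih1 had a log2 fold change of 1.91, and Rtp4, a chaperone of receptors, 2.51. Of 25 antigen presentation genes 11 were higher and none lower. Without genes that had a 0 count, 7 of 19 were higher. Psmb8, a subunit of the immunoproteasome, was at 19.3 and 17.5 CPM in SLG organoids, against 0.672 and 0.598 CPM in SMG organoids, with a log2 fold change of 4.85 (SE 0.173, edgeR adjusted p = 2.67e-08). H2-Ab1, a class II chain, was at 12.1 and 15.3 CPM in SLG organoids, against 0.0937 and 0.11 CPM in SMG organoids, with a log2 fold change of 7.05 (SE 0.342, edgeR adjusted p = 4.12e-07). H2-Q4 (log2 fold change 2.86) and H2-K1 (log2 fold change 1.16), class I genes that are close copies of each other, were higher too, and H2-K1 lost its call without SLG replicate 1. Of 27 respiratory chain genes 1 was higher and none lower, with a median of 0.0412.

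**Figure D4:**
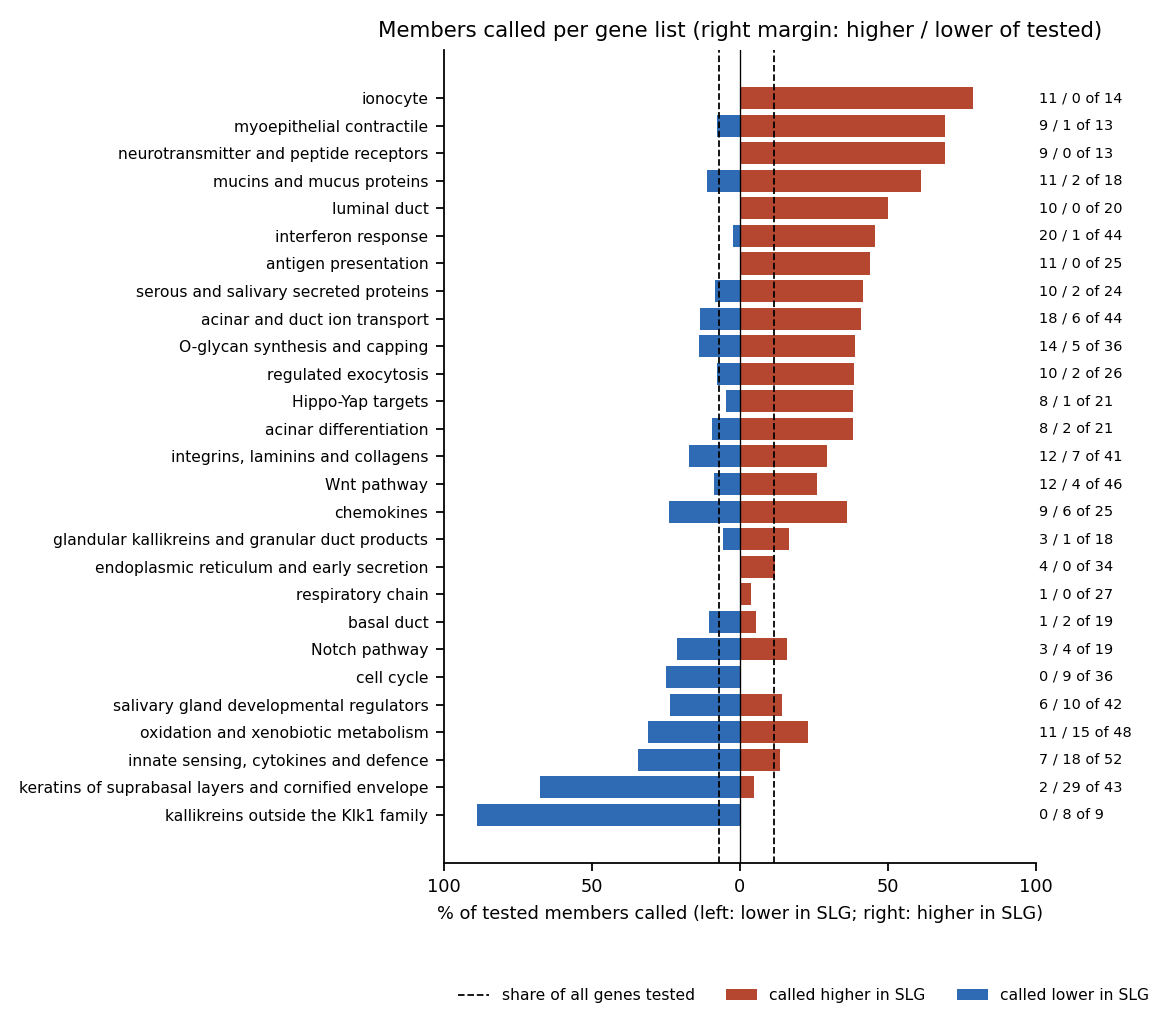
Share of tested members called higher (right) and lower (left) in SLG relative to SMG organoids for 27 gene lists, in %, with the shares over all genes tested, 11.5% higher and 6.92% lower, as dashed lines. Ionocyte, myoepithelial and receptor lists reach furthest to the right, and suprabasal and epidermal kallikrein lists furthest to the left.

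Some genes were silent in one gland. In SMG organoids 283 genes had 0 counts in both libraries and at least 10 counts in both SLG libraries, of which 242 encode proteins. In SLG organoids 96 genes were silent in this way, 65 of them coding for proteins. After Col4a6, the highest of the genes silent in SMG organoids was Tnfrsf11b (gene 18383, chromosome 15, 54250619 to 54278484), osteoprotegerin, a decoy receptor, with 1282 and 1116 counts in SLG organoids, against 0 and 0 counts in SMG organoids, at least 382-fold higher. Cxcl12 (gene 20315, chromosome 6, 117168535 to 117181368), a chemokine that attracts cells with CXCR4, had 834 and 612 counts in SLG organoids, against 0 and 0 counts in SMG organoids, at least 229-fold higher. Ppp1r9a, a scaffold of the actin skeleton, was at least 192-fold higher, Pcp4l1, a small calmodulin-binding protein, 146-fold, Ehhadh, an enzyme of peroxisomal fat oxidation, 108-fold, and Rps4l, a copy of a ribosomal protein gene, 107-fold. Among genes silent in SLG organoids Tmprss11a, a membrane serine protease, was at least 52.2-fold lower. Outside the silent genes, F5, coagulation factor V, was at 56.8 and 49.4 CPM in SLG organoids, against 0 and 0.126 CPM in SMG organoids, with a log2 fold change of 9.68 (SE 0.367, edgeR adjusted p = 1.25e-07). G0s2, an inhibitor of fat breakdown, was at 49.2 and 42.6 CPM in SLG organoids, against 0.0937 and 0.11 CPM in SMG organoids, with a log2 fold change of 8.79 (SE 0.261, edgeR adjusted p = 1.25e-08). Plce1, a phospholipase C, was at 18.3 CPM in SLG and 0.0315 CPM in SMG organoids and Crip1, a cysteine-rich LIM protein, at 14.5 CPM in SLG and 0.0472 CPM in SMG organoids. Prkg2, a cGMP-dependent kinase, was lower, at 0.211 and 0.401 CPM in SLG organoids, against 19.2 and 17.2 CPM in SMG organoids, with a log2 fold change of −5.91 (SE 0.216, edgeR adjusted p = 3.1e-08). Slit1, a guidance factor, was at 1.01 and 0.53 CPM in SLG organoids, against 40.0 and 25.9 CPM in SMG organoids, with a log2 fold change of −5.39, and AA467197, which carries no descriptive name in the files, at 0.757 CPM in SLG and 59.6 CPM in SMG organoids.

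Parotid (PG) organoids in the DAM, which share the fit, were set beside both glands. Of the 2025 genes higher in SLG organoids, 1546 (76.3%) had a PG level nearer to SLG than to SMG organoids on a log2 scale of CPM + 0.1, whereas of the 1218 lower genes 633 (52.0%) did. Col4a6 was at 58.1 CPM in PG organoids, Acta2 at 176, Kit at 21.5 and Krt8 at 1302 CPM, on the side of SLG organoids. Sprr2d was at 199 and Il1f9 at 30.7 CPM, on the side of SMG organoids. Foxi1, at 6.83 CPM, and Lyz2, at 3.4 CPM, lay between. SMG organoids still in the GEM lay nearer to SMG than to SLG organoids in the DAM for 1906 of the higher and 1111 of the lower genes.

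The same glands were then compared as tissue, 2 libraries each, to ask whether the organoids kept the difference between them. The 2 SLG tissue libraries stood apart in genes that were abundant in parotid (PG) tissue. Smr3a, a salivary peptide gene, had 798947 counts in SLG tissue replicate 1 and 345 in replicate 2, against 7 and 11 in SMG tissue, with 9383923 and 9298792 in PG tissue. Amy1, salivary amylase, had 562296 and 622 counts in SLG tissue, BC037156 31793 and 21, and Prb1, a proline-rich protein, 3730 and 11. The part of PG RNA in the tissue differences was not tested, and the main tissue results are given with and without SLG tissue replicate 1. In tissue 1581 genes were higher in SLG than in SMG (9.35% of 16914 tested) and 1742 lower (10.3%), in all 19.6%. Without SLG tissue replicate 1 these counts were 1528 and 1608, and without SLG tissue replicate 2 they were 1340 and 1052. Of the 1786 genes higher in SLG organoids that were tested in tissue, 350 (19.6%) were higher in SLG tissue too and 287 (16.1%) were lower. Of the 769 lower genes tested in tissue, 144 (18.7%) were lower in SLG tissue and 84 (10.9%) higher. Without SLG tissue replicate 1, 334 of 1832 higher genes (18.2%) and 125 of 829 lower genes (15.1%) kept their direction in tissue, and 275 (15%) and 74 (8.93%) were called the other way. The difference between glands itself differed between organoids and tissue for 4140 of 19234 genes (21.5%), more positive in organoids for 2308 (12%) and more negative for 1832 (9.52%) in a test of the interaction by edgeR. Without SLG tissue replicate 1, every gene given an interaction value here kept the sign of its tissue difference and of its interaction. With whole-library totals the 2 counts of the interaction were 1366 and 6701, and that scaling moved the median of all genes by −0.86, whereas the 10 most abundant genes held 47.0% to 49.6% of SLG and 78.7% to 80.2% of SMG tissue counts. Tissue also holds vessels, nerve, fibroblasts and blood cells, and the 2 materials came in separate tables, so that material and preparation cannot be told apart.

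Wnt5b kept its direction, at 4.32 and 5.2 CPM in SLG tissue, against 1.71 and 0.797 CPM in SMG tissue (log2 fold change 1.91 in tissue and 3.61 in organoids, differing by 1.67). Dcpp3 was at 66001 and 58836 CPM in SLG tissue, against 1.67 and 3.07 CPM in SMG tissue, so that its tissue difference of 14.69 far exceeded the 1.07 of the organoids (interaction −13.65, adjusted p = 4.72e-11 from edgeR). Sox2 was at 37.7 and 37.8 CPM in SLG tissue, against 0 and 0.0703 CPM in SMG tissue, where it had 0 and 3 counts, a ratio of 1170 in tissue with a 95% counting interval of 400.2 to 5675. The fitted interaction of Sox2, −9.40, depends on the prior count. Klk1 was lower in SLG tissue at −2.44 and Klk1b11 at −2.54, and neither was called in organoids, with interactions of 2.47 and 2.82. Sema3b (0.10) and Itga8 (−0.33) were not called in tissue, with interactions of −1.95 and −2.27. Smgc was lower in SLG tissue, at 1094 CPM in SLG tissue and 3687 CPM in SMG tissue, and higher in SLG organoids, an interaction of 4.49.

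Genes called in opposite directions in organoids and tissue included the ionocyte and lysozyme genes. Foxi1, the ionocyte factor, was at 24.2 CPM in SLG and 0.314 CPM in SMG organoids, against 2.44 CPM in SLG tissue and 7.22 CPM in SMG tissue, a difference of the log2 fold changes of 7.78 (adjusted p = 4.68e-10 from edgeR). Stap1 was at 3.99 CPM in SLG tissue and 10.5 CPM in SMG tissue, an interaction of 10.62. Lyz2, the lysozyme gene, was at 43.3 CPM in SLG and 0.0315 CPM in SMG organoids, against 10.5 CPM in SLG tissue and 23.5 CPM in SMG tissue, a difference of the log2 fold changes of 11.43 (adjusted p = 2.08e-10 from edgeR). G0s2 was at 51.8 CPM in SLG tissue and 116 CPM in SMG tissue and also lower in SLG tissue, with an interaction of 9.90. Esp18, a secreted exocrine peptide, was at 10.1 and 9.08 CPM in SLG organoids, against 0.156 and 0.425 CPM in SMG organoids, and in tissue at 2.13 CPM in SLG tissue and 20.7 CPM in SMG tissue, an interaction of 8.28. Hepacam2, an adhesion protein, was at 7.39 and 7.89 CPM in SLG organoids, against 0.0937 and 0 CPM in SMG organoids, and in tissue at 3.22 CPM in SLG tissue and 9.68 CPM in SMG tissue, with an interaction of 8.81. All of these were higher in SLG organoids and lower in SLG tissue. So were other genes named above, among them Bhlha15, Adrb1, Unc13b, Crisp3, Cftr, Ascl3, Atp6v0d2, Tfap2b, Psmb8 and Rgs5. For these the result without SLG tissue replicate 1 is not given here. In the reverse direction Galnt6, which starts O-glycans, was at 59 and 62.3 CPM in SLG organoids, against 174 and 151 CPM in SMG organoids, and in tissue at 17.5 CPM in SLG tissue and 0.351 CPM in SMG tissue, an interaction of −7.08. Isg20, an interferon-induced exonuclease, was at 28 CPM in SLG and 63.2 CPM in SMG organoids and 95.2 CPM in SLG tissue and 0.717 CPM in SMG tissue, with an interaction of −8.25. In organoids its log2 fold change of −1.17 missed the threshold at −0.91 with log2(TPM + 1). Atp2c2, a calcium pump of the secretory pathway, was at 1.62 CPM in SLG and 10.5 CPM in SMG organoids and 5.76 CPM in SLG tissue and 0.292 CPM in SMG tissue, with an interaction of −6.99. Tnfrsf23, a TRAIL decoy receptor of the mouse, had −7.22, Sh3rf2, a scaffold protein, −7.18 and Ccdc3, a secreted coiled-coil protein, −6.72.

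**Figure D5:**
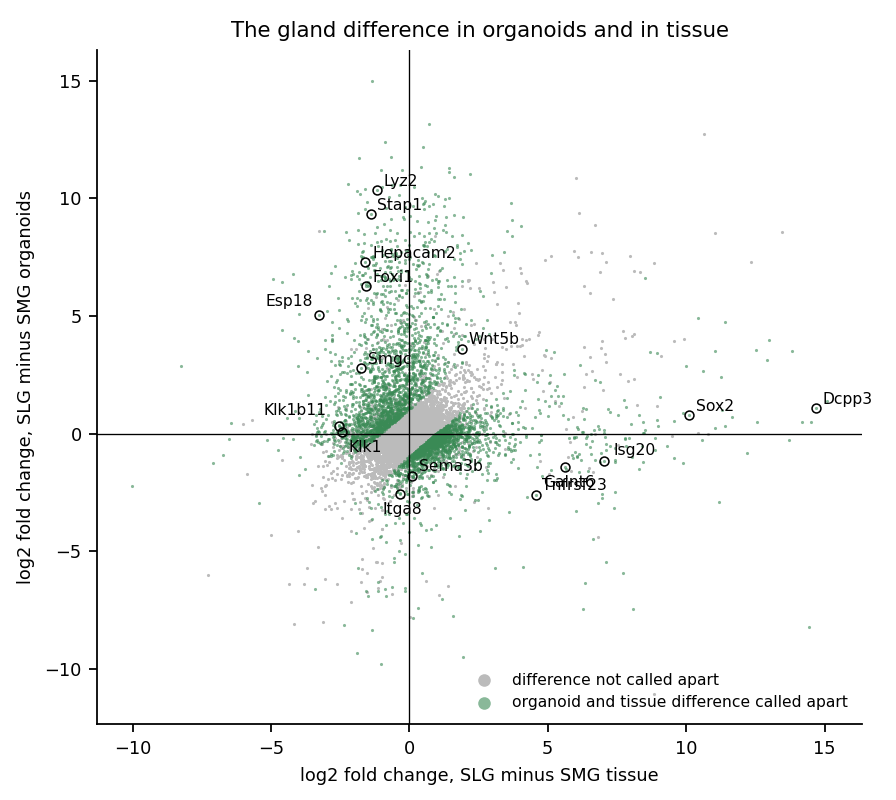
Log2 fold change of SLG relative to SMG organoids (vertical axis) against that of SLG relative to SMG tissue (horizontal axis), 1 point per gene tested in both, with genes whose 2 differences were called apart in green. Lyz2, Stap1 and Foxi1 lie in the upper left, higher in SLG organoids and lower in SLG tissue, and Dcpp3 and Sox2 lie far to the right with small organoid differences.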

How the data were processed

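RNA of organoids and tissue was sequenced on a NovaSeq. The labels name a stranded total RNA kit and the study's methods a stranded mRNA kit, and the strand setting of the counting is not stated in those sources. The submitters' notes name HISAT2, StringTie, DESeq2 and the build GRCm38 without versions. The authors deposited raw read counts per gene and library, and TPM values, which the authors scaled within each library. Organoids and tissue are separate deposited tables, and 24 other value columns were not used. Groups were taken from the sample labels. For 2 libraries of the shared fit, of PG in the DAM and SMG in the GEM, the column header gave a replicate number that no label has. These were placed by the group in that header.

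The 8 organoid libraries were fitted together with edgeR 4.0.16 in R 4.3.3 (TMM, robust quasi-likelihood test, genes kept by filterByExpr with a minimum count of 10), and SLG was compared with SMG in the DAM. The thresholds of a call were 0.05 for the p adjusted by Benjamini and Hochberg, and a change of 2-fold. Tissue had its own fit, and the difference of differences was tested over 12 libraries. Alternatives used DESeq2 1.42.0 and limma 3.58.1. The scripts were tested on simulated data. Promoter windows are RefSeq's on GRCm38.p6. The start used for a gene can lie inside its printed bounds, as for Sprr1b and Col4a6.

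Genes were named by rule: those of the study's text, the 14 largest changes in each direction above 5 CPM, the 8 most abundant silent on one side, up to 5 of the smallest adjusted p in each list, and the 6 largest opposite changes in each direction. Not all of them are described. The members, lists and rules were chosen with earlier results of these data known.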

Additional observations from a re-analysis of the deposited data

Results flagged for a closer look

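The difference between SLG and SMG was not the same in organoids and in tissue for 4140 genes by the edgeR test of the interaction. Each value here is the organoid log2 difference minus the tissue log2 difference, so a positive one means that SLG stood higher, relative to SMG, in organoids than in tissue.

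Among genes tied to one gland the interaction was −13.65 for Dcpp3, −9.40 for Sox2, 1.67 for Wnt5b, 4.49 for Smgc, 2.47 for Klk1, 2.82 for Klk1b11, −1.95 for Sema3b and −2.27 for Itga8. Dcpp3 and Sox2 were far higher in SLG than in SMG tissue and close together in organoids. Klk1 and Klk1b11 were lower in SLG tissue and not called in organoids. Among genes higher in SLG organoids and lower in SLG tissue the interaction was 11.43 for Lyz2, a lysozyme, 10.62 for Stap1, a signaling adaptor, 9.90 for G0s2, an inhibitor of fat breakdown, 8.81 for Hepacam2, an adhesion protein, 8.28 for Esp18, a secreted peptide, 7.78 for Foxi1, the ionocyte factor. Among genes lower in SLG organoids and higher in SLG tissue it was −8.25 for Isg20, an exonuclease, −7.22 for Tnfrsf23, a decoy receptor, −7.18 for Sh3rf2, a scaffold protein, −7.08 for Galnt6, which starts O-glycans, −6.99 for Atp2c2, a calcium pump, −6.72 for Ccdc3, a secreted protein.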

How the results depend on the processing

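No gene called between SLG and SMG organoids was called in the other direction under any alternative. The counts of 2025 higher and 1218 lower were 1188 and 422 with limma on log2(TPM + 1), and 539 were lower with log2(TPM + 0.1), where fewer genes were tested and the median of all genes moved by 0.225 and 0.246. Of all calls 62.4% were higher, against 73.8% and 73.3% with TPM. Leaving out each organoid library in turn gave 1681 to 1767 higher and 999 to 1148 lower genes. Leaving out each organoid or tissue library of the 2 glands gave 2039 to 2265 and 1598 to 1852 for the interaction. For tissue, an alternative chosen after seeing the data, leaving out each SLG or SMG library in turn gave 1340 to 1543 higher and 1052 to 1608 lower genes, the lowest without SLG tissue replicate 2, against 1581 and 1742. The interaction with whole-library totals gave 1366 higher and 6701 lower genes, with a median of −0.858. Genes silent in SMG organoids numbered 480 with a minimum of 5 counts and 155 with 20, and genes silent in SLG organoids 201 and 41. Klk1, which was not called, ranged from −0.34 without SMG replicate 1 to 0.64 without SMG replicate 2. The interaction of Wnt5b was no longer called at 0.81 with whole-library totals and 0.99 without SMG tissue replicate 1. Of 185 named genes, 14 lost a call and 3 gained one in at least 1 alternative. Same-numbered libraries did not deviate together (r = 0.0306 across genes). Because each gland had only 2 libraries, this cannot tell whether same-numbered libraries shared a mouse or a batch. Fitting a replicate block gave 1953 higher and 1166 lower genes. The interaction then had 2211 and 1762, and no named call changed. With 2 libraries a group, and SMG libraries that differed more (chi-square per degree of freedom 28.2, against 6.98 in SLG), small changes of low genes were hard to detect.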

Other observations

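Some retinoid genes differed, in both directions. Rarb, a retinoic acid receptor and itself a retinoid target, was at 39.6 and 42.5 CPM in SLG organoids, against 1.39 and 1.07 CPM in SMG organoids, with a log2 fold change of 5.06 (SE 0.177, edgeR adjusted p = 2.62e-08). Aldh1a3, which makes retinoic acid, was at 61.7 and 60.5 CPM in SLG organoids, against 4.45 and 4.23 CPM in SMG organoids, with a log2 fold change of 3.81 (SE 0.19, edgeR adjusted p = 1.04e-06). The uptake receptor gene Stra6 was lower, with a log2 fold change of −2.74, and so was the binding protein gene Crabp2, at 6.94 and 7.04 CPM in SLG organoids, against 41.7 and 45.6 CPM in SMG organoids. Of the hedgehog and retinoic acid genes 3 of 23 tested were higher (13%), near the 11.5% of all genes. Lower were 5 (21.7%), beside 6.92% of all genes. Among Bmp and Tgfβ genes 6 of 32 tested were higher (18.8%) and 5 lower (15.6%). Tgfb2, a ligand whose receptor the A83-01 of both media inhibits, was at 64.4 and 59.6 CPM in SLG organoids, against 7.69 and 8.51 CPM in SMG organoids, and Fst, the activin antagonist follistatin, at 16.4 CPM in SLG and 2.67 CPM in SMG organoids. In the Fgf pathway 3 of 25 tested were higher and 3 lower, 12% each. Fgfr1 was among the lower, at 120.2 and 108 CPM in SLG organoids, against 303 and 266 CPM in SMG organoids. Hbegf, a ligand of the EGF receptor, was lower, at 9.34 CPM in SLG and 35.3 CPM in SMG organoids, whereas Lrig1, which restrains that receptor, was higher, at 78.9 CPM in SLG and 27.7 CPM in SMG organoids.

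Chemokine genes moved in both directions, and 9 of 25 tested were higher and 6 lower. This count and those below stand beside 11.5% higher and 6.92% lower over all genes. Cxcl17, a mucosal chemokine, was at 417 and 399 CPM in SLG organoids, against 93.9 and 97.9 CPM in SMG organoids, and Ccl9 at 180.0 CPM in SLG and 42.3 CPM in SMG organoids, whereas Cxcl1, which attracts neutrophils, was at 55.1 and 48.9 CPM in SLG organoids, against 169.6 and 173 CPM in SMG organoids. Of the genes of oxidation and xenobiotic metabolism 11 of 48 tested were higher and 15 lower. Aldh1l1, an enzyme of folate metabolism, was at 41.1 and 44.5 CPM in SLG organoids, against 1.67 and 1.75 CPM in SMG organoids, with a log2 fold change of 4.64 (SE 0.183, edgeR adjusted p = 8.03e-08). Nqo1, a quinone reductase, was lower, at 5.52 and 6.55 CPM in SLG organoids, against 37.5 and 37.8 CPM in SMG organoids, with a log2 fold change of −2.64 (SE 0.1, edgeR adjusted p = 3.53e-08), as was the aldo-keto reductase gene Akr1b8, with a log2 fold change of −1.77. Of the semaphorins and their receptors 8 of 24 tested were higher and 3 lower, and the receptor gene Plxna4 had 219 and 155 counts in SLG organoids, against 0 and 0 counts in SMG organoids, at least 59.2-fold higher.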
